A study of Mus musculus with 11 samples.

Results

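The stress response and protein folding genes described here are 10 of the 22019 genes counted in livers of male wild-type (WT) mice. They were taken by Ensembl identifier from a list that paired each identifier with its symbol, and all 10 were found in the table. The stress regulators are Atf4 (ENSMUSG00000042406), Ddit3 (ENSMUSG00000025408) and Xbp1 (ENSMUSG00000020484), and Asns (ENSMUSG00000029752) is a metabolic target. The genes of folding in the endoplasmic reticulum (ER) are Hspa5 (ENSMUSG00000026864), Hsp90b1 (ENSMUSG00000020048), Calr (ENSMUSG00000003814), Pdia3 (ENSMUSG00000027248), Pdia4 (ENSMUSG00000025823) and P4hb (ENSMUSG00000025130). The diets were Chow Diet and High Fat High Sugar (HFHS), with no other treatment and no other allele named; age and time on the diet are not given in the labels. Monosome footprints, the mRNA pieces of about 30 nt that single ribosomes protect from RNase I, were sequenced from 3 chow and 3 HFHS samples. Disome footprints, the pieces of about 60 nt under a pair of abutting ribosomes, were sequenced from 3 chow and 2 HFHS samples. The liver label could not be set against named marker genes, because the table gives identifiers without symbols.

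The integrated stress response slows initiation of translation when kinases phosphorylate the initiation factor eIF2. It lets ribosomes reach the coding sequence of Atf4, whose upstream open reading frames otherwise divert them, and ATF4 then activates genes such as Ddit3 (CHOP, a transcription factor linked to cell death) and Asns (asparagine synthetase). The unfolded protein response shares ATF4 and CHOP and adds XBP1, a transcription factor made from an mRNA that the ER sensor IRE1 splices. The product of unspliced Xbp1 mRNA carries a peptide near its end that slows the ribosome and so holds the mRNA at the ER membrane. The ER folding members are Hspa5 (BiP) and Hsp90b1 (GRP94), chaperones of the HSP70 and HSP90 families; Calr (calreticulin), a lectin chaperone that binds calcium; and Pdia3 (ERp57), Pdia4 (ERp72) and P4hb (PDI), disulfide isomerases. In hepatocytes they serve the folding of plasma proteins made for export.

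ATF6 and XBP1 act on ER folding genes through the ER stress response element (ERSE), and ATF4 acts on its targets through a C/EBP-ATF response element (CARE). Both were searched for as exact letters on both strands in the 250 bases upstream of the start of transcription, in RefSeq windows (GRCm38.p6) matched by symbol for 10 of 10 members. The ERSE, read as CCAAT and CCACG with 9 bases between them, occurred in 3 members, Hspa5, Hsp90b1 and Calr, and in 0.113% of 32851 windows of that length. The CARE letters TGATGNAA occurred in 1 member, Asns, and in 3.45% of the windows. The related ERSE-II (ATTGG and CCACG with 1 base between them, 0.0304% of windows) and UPRE (TGACGTGG, 0.563%) occurred in 0 members. The matches are shown 5′ to 3′ on the strand of the gene, with the fixed letters of the motif in capitals, because they are the sequence matches found in 4 of the 10 members. The elements were searched for because genes of these kinds are known to carry them. The matches are therefore no independent finding about the set. They are descriptions of letters, not evidence of binding.
Hspa5, chr2:34772010-34772058 (+): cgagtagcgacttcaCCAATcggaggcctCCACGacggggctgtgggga
Hsp90b1, chr10:86705623-86705671 (-): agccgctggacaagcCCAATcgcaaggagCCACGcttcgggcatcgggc
Hsp90b1, chr10:86705518-86705566 (-): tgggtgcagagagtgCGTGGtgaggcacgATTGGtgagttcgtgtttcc
Calr, chr8:84847060-84847108 (-): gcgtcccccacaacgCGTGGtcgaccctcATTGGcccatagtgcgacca
Asns, chr6:7693210-7693247 (-): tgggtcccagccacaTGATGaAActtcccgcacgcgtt
In Hspa5 the element began 65 bases before the start. In Hsp90b1 a pair of elements began 212 and 107 bases before it, the nearer on the opposite strand. In Calr the element began 162 bases before the start, also on the opposite strand. In Asns the CARE letters began 23 bases before it.

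Libraries held 795145 to 1612324 counts in monosomes and 147212 to 279331 counts in disomes. Levels are given in CPM, counts scaled to the size of the library, on which 3 counts were worth 1.86 to 3.77 CPM in a monosome library and 10.7 to 20.4 CPM in a disome library. The 10 genes took 0.605% to 0.863% of the counts of a monosome library and 0.378% to 0.453% of those of a disome library. Libraries are named here by the barcode in their column, with the same name in both footprint classes: C1 (AGCTA), C2 (ATCGT) and C3 (CGTAA) for chow, and H1 (CTAGA), H2 (GATCA, monosomes only) and H3 (GCATA) for HFHS. These names are no replicate numbers. The C1 libraries stood apart in both footprint classes: 30 genes that were high in this monosome library alone made up 4.15% of it, where no other monosome library gave them more than 0.038%, and 3.97% of the C1 disome library. None of the 10 genes was among these 30, and results that rest on C1 are given with and without it. Adjusted p-values come from edgeR's two-sided quasi-likelihood test and were adjusted by Benjamini and Hochberg's method across the genes tested, and a gene with a value below 0.05 is said to be called.

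Of the 10 genes, 8 had enough footprints to be tested in each comparison. Ddit3 and Asns did not pass the filter on low counts in any of them.

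Disome footprints were set against monosome footprints within each diet, which asks where ribosomes were packed together more or less often than the monosome level of a gene would give, relative to the average gene. In chow the stress regulators and the folding genes lay on opposite sides. Atf4 and Xbp1 were higher in disomes, by 2.38-fold and 1.58-fold, and all 6 folding genes were lower, by 1.43-fold (Hsp90b1) to 3.55-fold (P4hb). All 8 tested members were called, in a comparison where 44.9% of 4713 genes were called, 21.6% higher and 23.3% lower. In HFHS the 6 folding genes were again called lower, where 13.6% of 7437 genes were called lower, and neither Atf4 nor Xbp1 was called higher, where 11.5% were. The footprint classes carry separate prefixes in the columns, so any other difference between the prefixes cannot be told apart from one between classes. The share of all genes whose disome and monosome libraries did not overlap was not counted. Statements on overlap of the classes below therefore only describe the members.

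Atf4 had 21, 33 and 28 monosome counts and 9, 15 and 22 disome counts in the chow libraries C1, C2 and C3. The disome level was 2.18, 2.21 and 2.67 times the monosome level of the same barcode. The disome libraries all lay above the monosome libraries. The log2 ratio in chow was 1.25 ± 0.29 (SE; 95% interval 0.66 to 1.85; adjusted p = 0.000668), and 92.4% of the genes tested had a lower ratio. In HFHS, Atf4 had 30, 28 and 28 monosome counts in H1, H2 and H3 and 7 and 5 disome counts in H1 and H3. The footprint classes overlapped in HFHS, with disome levels 1.24 and 1.12 times the monosome level of the same barcode. The log2 ratio there was 0.18 ± 0.45 (95% interval -0.75 to 1.10; adjusted p = 0.812). That interval overlaps the one found in chow. Counts were made over the coding sequence, so footprints upstream of it are not in these values. The sums hold no positions or reading frame, so ribosomes on an upstream frame reaching into the coding sequence could not be set apart.

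Xbp1 had 104, 126 and 160 monosome counts and 24, 51 and 73 disome counts in chow (C1, C2 and C3). Its disome level was 1.18, 1.96 and 1.55 times the monosome level of the same barcode, and the classes did not overlap. The nearest libraries, disome C1 (172 CPM) and monosome C3 (167 CPM), lay close together. Counting alone gives an SD of 34.6 CPM in chow disomes, as scaled in the disome fit. The log2 ratio was 0.66 ± 0.19 (95% interval 0.27 to 1.05; adjusted p = 0.0052), with 77.7% of the genes tested at a lower ratio. Xbp1 was not called without the monosome library C2 (log2 ratio 0.44, adjusted p = 0.0875), without the disome library C3 (0.46, adjusted p = 0.116) or with no filter on low counts (0.46, adjusted p = 0.0642). In HFHS it had 139, 123 and 138 monosome counts in H1, H2 and H3 and 34 and 35 disome counts in H1 and H3, at 1.30 and 1.60 times the monosome level. The HFHS classes did not overlap either, and the log2 ratio was 0.48 ± 0.22 (95% interval 0.022 to 0.94; adjusted p = 0.118). With the barcode as a block, a fit that leaves out H2, it was 0.53 and was called (adjusted p = 0.0456). The table sums each gene over 1 transcript and holds no positions, so it does not show where on Xbp1 the disomes lay, whether at the arrest peptide, or which splice form they came from.

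**Figure D1:**
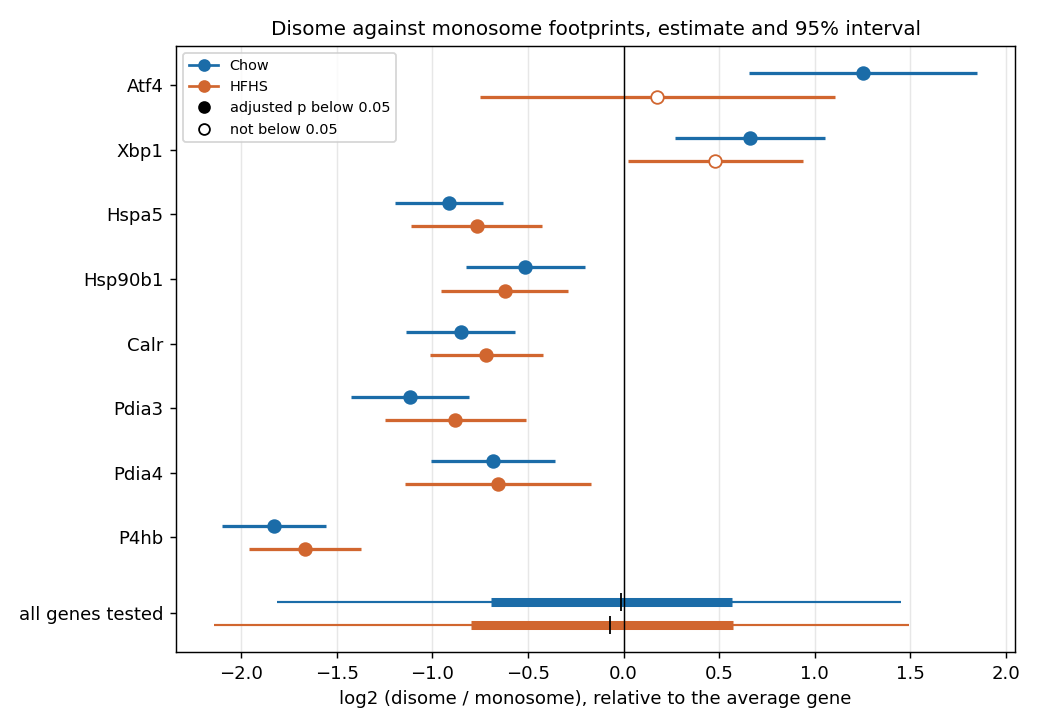
Log2 ratio of disome to monosome footprints (x axis) of the 8 tested members in chow (blue) and HFHS (orange), with 95% intervals; filled points passed the threshold. The lowest lines give all genes tested, as the median (tick), the middle 50% (thick) and the 5th to 95th percentile (thin). Atf4 and Xbp1 lie to the right of 0 and the 6 folding genes to the left in both diets.

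P4hb, whose product is protein disulfide isomerase, had the lowest ratio of the members. It had 1834, 2870 and 2485 monosome counts in chow (C1, C2 and C3) against 109, 169 and 189 disome counts. Its disome level was 0.303, 0.286 and 0.258 times the monosome level of the same barcode in chow, and 0.296 and 0.309 times in HFHS (H1 and H3). All disome libraries lay below all monosome libraries in both diets. The log2 ratio was -1.83 ± 0.13 in chow (adjusted p = 6.01e-14) and -1.66 ± 0.14 in HFHS (adjusted p = 3.75e-10), and 4.88% and 8.66% of the genes tested had a lower one.

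The disulfide isomerase Pdia3, which works on glycoproteins together with calreticulin, followed. Its disome level was 0.524, 0.449 and 0.422 times the monosome level in chow and 0.546 and 0.442 times in HFHS. The log2 ratio was -1.12 ± 0.15 in chow (adjusted p = 1.53e-07) and -0.88 ± 0.18 in HFHS (adjusted p = 0.000475). Calr itself was at 0.603, 0.573 and 0.499 times in chow and at 0.573 and 0.580 times in HFHS, with log2 ratios of -0.85 ± 0.14 (adjusted p = 4.56e-06) and -0.72 ± 0.15 (adjusted p = 0.000416). Disome and monosome libraries of Pdia3 and Calr did not overlap in either diet.

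Hspa5, the chaperone that also binds and holds back the ER stress sensors, had 1107, 2139 and 2176 monosome counts and 137, 230 and 299 disome counts in chow. The disome level was 0.631, 0.522 and 0.467 times the monosome level in chow and 0.541 and 0.538 times in HFHS, and no disome library reached a monosome library of its diet. The log2 ratio was -0.92 ± 0.14 in chow (adjusted p = 1.28e-06) and -0.77 ± 0.17 in HFHS (adjusted p = 0.00141). In HFHS it missed the threshold without the disome library H1 (-0.61, adjusted p = 0.057).

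Of the folding genes, Pdia4 and Hsp90b1 had the ratios nearest to 0 in both diets. The log2 ratio of Pdia4 was -0.68 ± 0.16 in chow (adjusted p = 0.000612) and -0.66 ± 0.23 in HFHS (adjusted p = 0.0462). In HFHS its libraries overlapped, and it missed the threshold with DESeq2 (adjusted p = 0.0813), with a minimum count of 50 (0.0541), without the monosome library H1 (0.0673) or H3 (0.133), and without the disome library H1 (0.379) or H3 (0.0737). For Hsp90b1 the log2 ratio was -0.51 ± 0.15 in chow (adjusted p = 0.00628), where its libraries overlapped, and -0.62 ± 0.16 in HFHS (adjusted p = 0.00509), where they did not. It missed the threshold in chow without the monosome library C3 (-0.45, adjusted p = 0.0518) and in HFHS without the disome library H3 (-0.60, adjusted p = 0.07). Over the 6 folding genes the median log2 ratio was -0.88 in chow and -0.74 in HFHS, against -0.012 and -0.070 over all genes tested.

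Without both C1 libraries the chow calls stood for all 8 members, where 876 of 5527 genes were called higher and 1015 lower. The log2 ratios were then 1.24 for Atf4, 0.74 for Xbp1 and between -1.93 (P4hb) and -0.63 (Hsp90b1) for the folding genes. In the pairs of libraries of 1 barcode, every ratio of Atf4 and Xbp1 was above 1 and every ratio of a folding gene was below 1. How many of all genes kept to 1 side in this way was not counted. Nothing in the labels says that libraries of 1 barcode come from 1 animal.

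**Figure D2:**
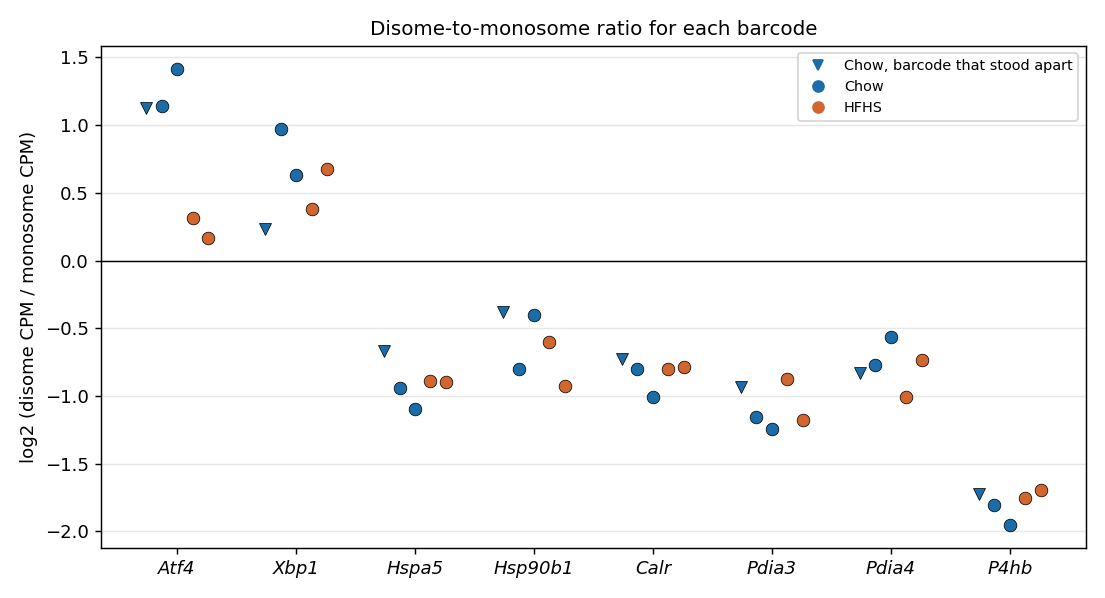
Log2 ratio of disome CPM to monosome CPM (y axis) of the libraries that share a barcode, for the 8 tested members; within a gene the points run C1, C2 and C3 (chow, blue) and H1 and H3 (HFHS, orange), with C1 as a triangle. The 5 ratios of P4hb are the lowest, from 0.258 to 0.309 on the linear scale. The 3 chow ratios of Atf4 lie above its 2 HFHS ratios, which rest on 7 and 5 disome counts. The diets were scaled in separate fits, and the Atf4 ratio is not shown to differ between them by the test over all libraries.

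The HFHS diet was then compared with chow in monosome footprints, which asks whether ribosome occupancy of these genes differed between the diets. No member was called (8 tested; smallest adjusted p = 0.194, and 1 of 8 at an unadjusted p below 0.05), where 4.65% of 6754 genes were. Of these 6754 genes, 1143 had an unadjusted p below 0.05. Atf4 and Xbp1 had the lowest estimates, at -0.34 and -0.38 on the log2 scale, and the folding genes lay between -0.21 (Hspa5) and 0.14 (Pdia4). These libraries hold no measure of mRNA, so a difference in mRNA and one in ribosomes per mRNA cannot be told apart, and in bulk liver neither can fewer cells of a type and less RNA per cell.

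In monosomes Atf4 was at 27.0, 27.0 and 26.6 CPM in chow (C2, C1 and C3) and at 22.4, 24.0 and 17.95 CPM in HFHS (H1, H2 and H3). All HFHS libraries lay below all chow libraries, which 21.6% of the genes tested did in either direction and 1 of the 8 members did. The 3 chow values were closer together (SD 0.256 CPM) than counting alone would make them (5.23 CPM), so their spread understates the error. The log2 difference was -0.34 ± 0.24 (95% interval -0.82 to 0.15; adjusted p = 0.519).

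Xbp1 was at 103, 134 and 152 CPM in chow monosomes and at 104, 106 and 88.5 CPM in HFHS monosomes, in the same order of libraries. The lowest chow library, C2, lay below a pair of HFHS libraries, so the groups overlapped. The log2 difference was -0.38 ± 0.16 (95% interval -0.70 to -0.061; adjusted p = 0.194). Leaving out C2 gave -0.53 with an adjusted p of 0.0487, the only setting in which a tested member was called for diet in monosomes. Leaving out C3 gave -0.24 with an adjusted p of 0.623.

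Hspa5 was at 1749, 1425 and 2065 CPM in chow and at 1426, 1242 and 1860 CPM in HFHS. The libraries of each diet spanned much of the same range, and the log2 difference was -0.21 ± 0.15 (95% interval -0.53 to 0.11; adjusted p = 0.537). P4hb was at 2347, 2361 and 2358 CPM in chow and at 2307, 2061 and 2378 CPM in HFHS, with a log2 difference of -0.067 ± 0.10 (95% interval -0.28 to 0.14; adjusted p = 0.818). Calr was nearest to 0, at 1178, 1143 and 1442 CPM in chow and at 1289, 1132 and 1385 CPM in HFHS, a log2 difference of 0.016 ± 0.12 (95% interval -0.23 to 0.27; adjusted p = 0.973). For the 6 folding genes the 95% intervals lay within -0.53 and 0.48 on the log2 scale, so larger differences than these lie outside them.

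In HFHS monosomes the 6 folding genes had 1 order of libraries: all 6 were lowest in H2 and highest in H3, an order that 17.7% of 6754 genes had. Pdia4, for instance, was at 353 CPM in H2, 527 in H1 and 617 in H3. Atf4 and Xbp1 were instead lowest in H3. In chow monosomes 5 of the 6 folding genes were lowest in C1, as were 33.7% of all genes tested. In disomes the orders were mixed: in HFHS 4 of the 6 were lower in H1 and 2 in H3, and in chow 4 were lowest in C2, 1 in C1 and 1 in C3. The 30 genes high in C1 alone could not be named here, and their part in these levels was not tested. Without C1 the log2 difference was -0.33 for Hspa5, -0.19 for Pdia3, 0.063 for Pdia4 and -0.064 for P4hb, while those of Hsp90b1 and Calr passed from 0.081 to -0.035 and from 0.016 to -0.044; none of the members was called.

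**Figure D3:**
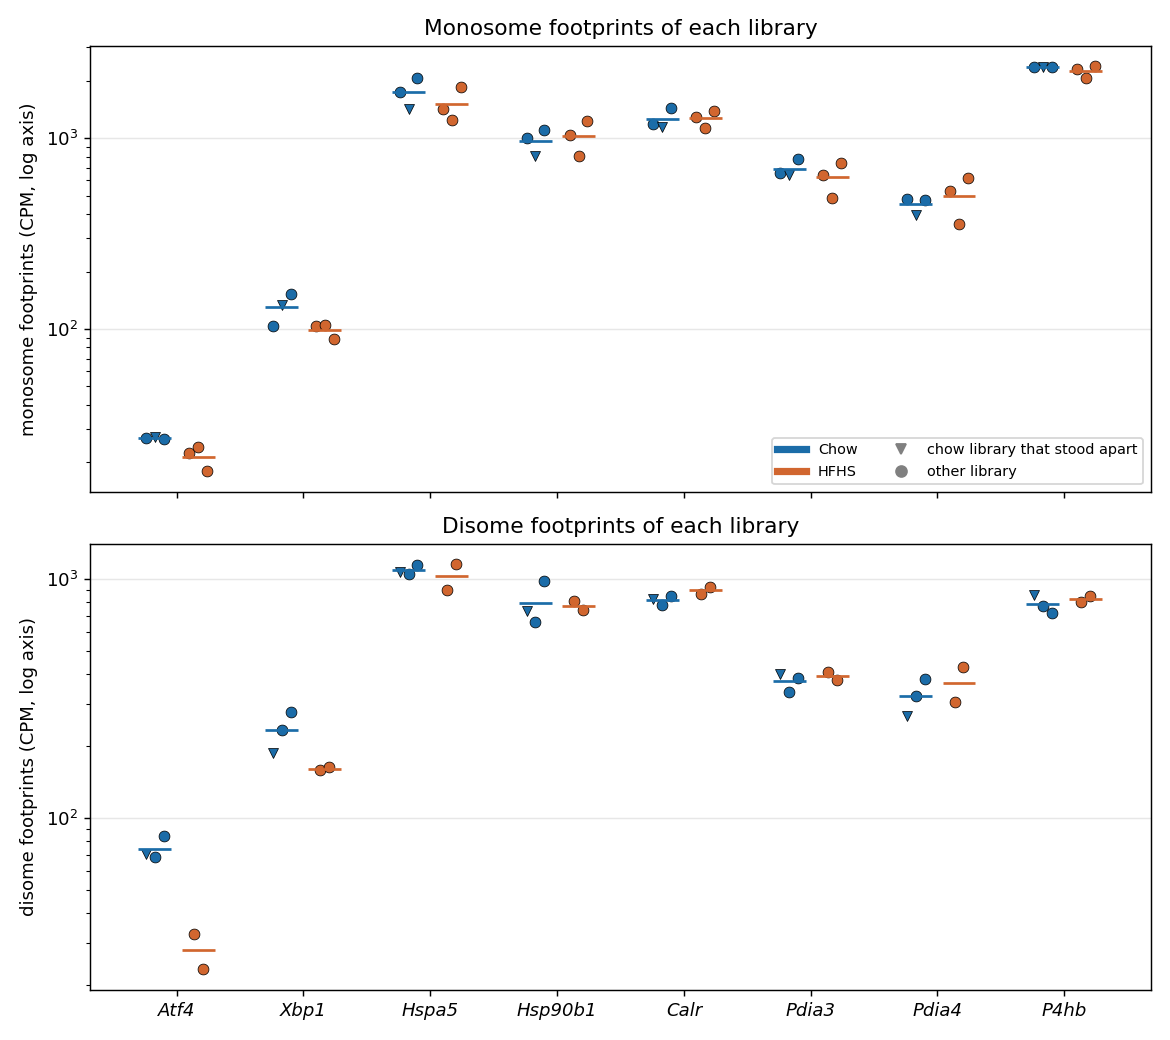
Monosome (upper) and disome (lower) footprint levels in CPM on a log axis, 1 point per library, for chow (blue) and HFHS (orange); bars are group means and triangles the chow libraries C1. Both disome levels of Atf4 in HFHS (32.5 and 23.2 CPM) lie below its 3 chow levels (68.4 to 83.8 CPM), while the folding genes of the diets lie close together.

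The same comparison in disome footprints asked whether disome levels of these genes differed with diet. A difference in mRNA, in ribosomes per mRNA or in how often ribosomes were packed together cannot be told apart here. No member was called (8 tested; smallest adjusted p = 0.0669, and 2 of 8 at an unadjusted p below 0.05), where 2.96% of 2804 genes were. Of these 2804 genes, 375 had an unadjusted p below 0.05. Atf4 had the lowest estimate, 2.67-fold lower in HFHS, Xbp1 was next at 1.49-fold lower, and the folding genes lay between -0.084 (Hspa5) and 0.15 (Pdia4) on the log2 scale. Groups did not overlap for 3 of the 8 members (Atf4, Xbp1 and Calr), against 28.2% of all genes tested. Atf4 entered this comparison only through its chow libraries, since its HFHS levels lay below the filter on low counts.

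Atf4 was at 70.3, 68.4 and 83.8 CPM in chow disomes (C1, C2 and C3), or 74.2 ± 8.41 CPM (SD, n = 3). It was at 32.5 and 23.2 CPM in HFHS disomes (H1 and H3), or 27.8 ± 6.58 CPM (SD, n = 2). The log2 difference was -1.41 ± 0.46 (95% interval -2.32 to -0.51), with an unadjusted p of 0.00212 and an adjusted p of 0.0669 from edgeR, and 0.856% of the genes tested had a lower one. Atf4 passed the filter on low counts through its chow libraries alone, which favours a lower value in HFHS. These p-values and this rank are therefore no independent support for a difference. With no filter the log2 difference was -1.33 (adjusted p = 0.382, edgeR). The Atf4 difference rested on 46 chow and 12 HFHS counts, and counting alone gives an SD of 19.8 and 11.4 CPM in these groups, above the spread seen. In the alternatives that could test it, the log2 difference ran from -1.65 to -1.19 and the adjusted p from 0.0694 to 0.528. Without C1 it was -1.45 (adjusted p = 0.119).

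Xbp1 was at 187, 233 and 278 CPM in chow disomes and at 158 and 162 CPM in HFHS disomes, so both HFHS libraries lay below the lowest chow library. The log2 difference was -0.58 ± 0.25 (95% interval -1.07 to -0.083; adjusted p = 0.258). Calr was at 820, 775 and 850 CPM in chow and at 863 and 923 CPM in HFHS, a log2 difference of 0.13 ± 0.18 (95% interval -0.23 to 0.49; adjusted p = 0.838). Its groups did not overlap, but the nearest libraries (850 and 863 CPM) lay closer together than the SD that counting alone gives (66.3 CPM in chow and 64.4 CPM in HFHS).

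Among the other folding genes, Hspa5 was at 1070.0, 1049 and 1139 CPM in chow disomes and at 901 and 1151 CPM in HFHS disomes. The HFHS libraries lay on either side of all chow libraries. Hsp90b1 ran from 661 to 983 CPM in chow and was at 803 and 742 CPM in HFHS. P4hb ran from 720.0 to 851 CPM in chow and was at 798 and 844 CPM in HFHS. Pdia3 ran from 337 to 398 CPM in chow and was at 409 and 376 CPM in HFHS. Pdia4 ran from 266 to 381 CPM in chow and was at 306 and 427 CPM in HFHS. In each of these 5 genes the groups overlapped, and adjusted p-values were between 0.838 (Pdia4) and 0.969 (Hsp90b1).

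**Figure D4:**
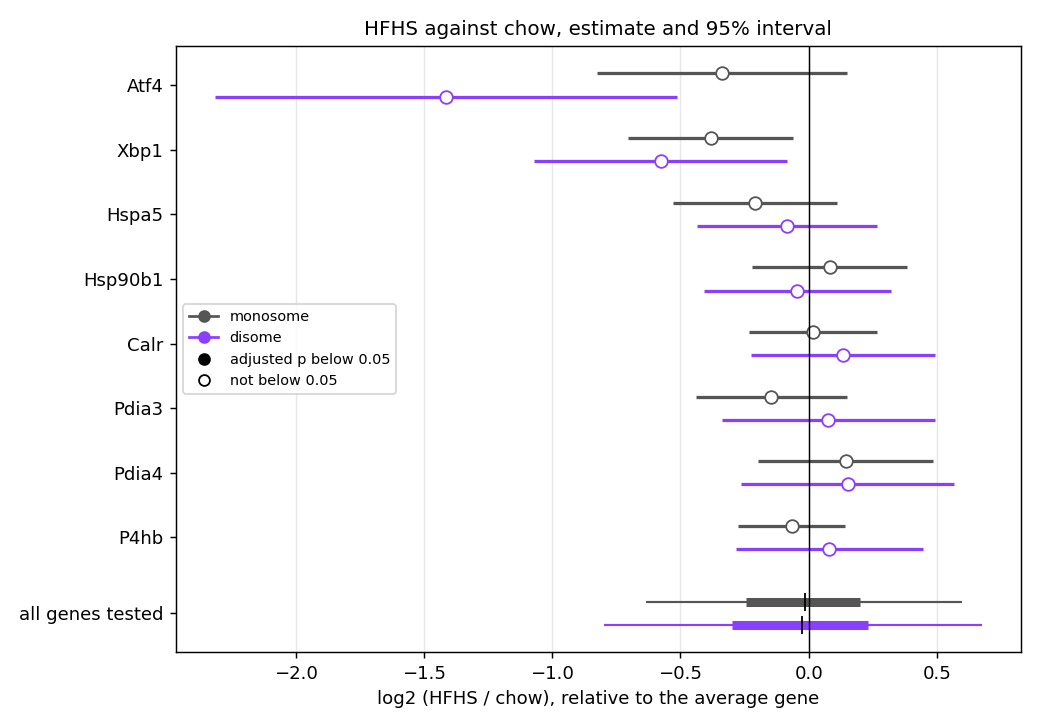
Log2 difference of HFHS and chow (x axis) in monosome (grey) and disome (purple) footprints of the 8 tested members, with 95% intervals; open points did not pass the threshold. The lowest lines give all genes tested, as the median (tick), the middle 50% (thick) and the 5th to 95th percentile (thin). All points are open, and Atf4 in disomes, at -1.41, lies farthest from 0. It passed the filter on low counts there through its chow libraries alone.

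Whether the diet difference in disomes departed from that in monosomes was tested in 1 model over all 11 libraries. No member passed (8 tested; unadjusted p below 0.05 for 0 of 8), and 0% of 7236 genes were called, with 358 of them at an unadjusted p below 0.05 and 0 called by DESeq2 as well. With the barcode as a block and H2 left out, 7 of 5833 genes were called, all lower, and no member was among them. For Atf4 the difference of diet effects was -1.01 ± 0.51 on the log2 scale (95% interval -2.03 to 0.014). Atf4 was called higher in disomes than in monosomes in chow and not in HFHS, and by this test its ratio is not shown to differ between the diets. For Xbp1 the difference was -0.095 ± 0.30 (95% interval -0.68 to 0.50), and for the folding genes it lay between -0.031 (Hsp90b1) and 0.31 (Pdia3). On simulated counts, this comparison recovered 7% of 2-fold and 33% of 4-fold differences. The shares were 61% and 93% for diet in monosomes and 47% and 89% for diet in disomes. For the disome to monosome ratio they were 45% and 88% in chow and 19% and 68% in HFHS. These shares were not worked out at the counts of single members such as Atf4.

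Ddit3 and Asns held too few footprints for the main tests. Ddit3 (CHOP) had 3 monosome counts in chow, 3 monosome counts in HFHS, 2 disome counts in chow and 4 in HFHS. Over both diets that is 6 counts of 7261737 in monosomes, or 0.826 CPM (exact 95% Poisson interval 0.303 to 1.80), and 6 of 1146139 in disomes, or 5.23 CPM (1.92 to 11.4). The share in disomes was 6.34 times that in monosomes (exact 95% interval 1.69 to 23.7, for counting error only), 3.05 times in chow (0.254 to 26.6) and 11.8 times in HFHS (1.99 to 80.4). All 2 chow disome counts of Ddit3 lay in C1, which had 0 monosome counts, and C2 and C3 had 0 disome counts. The chow ratio thus rests on C1, and without it the chow disome counts are 0. The ratio over both diets includes these C1 counts and was not computed without them. Fitted with no filter on low counts, the HFHS log2 ratio of Ddit3 was 3.09 ± 1.29 (adjusted p = 0.0925), and it was not called in any comparison.

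Asns had 5, 16 and 0 monosome counts in chow (C2, C1 and C3) and 2, 1 and 0 in HFHS (H1, H2 and H3). In disomes it had 2 counts in chow and 0 in HFHS; a count of 0 allows up to 3 counts, or 6.32 CPM, over that group, and the exact 95% Poisson interval ends at 7.77 CPM. With no filter the diet difference in monosomes was -3.07 ± 0.76 on the log2 scale (adjusted p = 0.00414). Most of its chow counts lay in C1, and without that library the value was -1.43 ± 1.16 (adjusted p = 0.787). The higher Asns level in chow therefore rests on the library C1.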

How the data were processed

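The table the authors deposited holds raw footprint counts over coding sequences, as whole numbers for 1 transcript per gene. Per the submitters' processing notes, cutadapt 3.5 and Bowtie2 were used; not given in the sources used here: genome build, annotation, strand setting, use of the molecular identifiers and treatment of shared reads. Column names give class, diet and barcode but no replicate number. Deviations of libraries of 1 barcode from their group means correlated across genes between the classes at r = 0.86, 0.69 and 0.70 in chow (C1, C2 and C3), and at 0.085 and 0.29 in HFHS (H1 and H3). The chow means include C1, and the disome deviations of H1 and H3 mirror each other. These correlations are therefore not independent and cannot be compared between the diets. The main fits hold no block, and blocked values are given where they change a call. Counts were tested with edgeR 4.0.16 (filterByExpr with a minimum count of 10, TMM, robust quasi-likelihood test) on all genes, each comparison on its own libraries; fold changes and intervals are on the log2 scale, and CPM are scaled within a fit. SE is the log2 difference over the square root of F. The script was tested on simulated data. The labels do not say that samples are separate animals, so p-values cover only the variation among these samples, which may be technical, and intervals from counts cover counting error only. The 10 genes, all of which are named, and the lists were chosen with earlier results of these data known. Since 0 identifiers matched the RefSeq gene table, 7 pathway and 8 cell marker lists, and levels per coding length, were not analysed here. Alternatives were DESeq2 1.42.0, RLE factors, filters, non-robust estimation, 1 joint fit, a barcode block and leaving out libraries.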

Additional observations from a re-analysis of the deposited data

How the results depend on the processing

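Disome depth limits these results: Atf4, Ddit3 and Asns had 12, 4 and 0 counts in HFHS disomes. No paired analysis by replicate number was possible because the columns carry none. The block by barcode kept all 8 chow calls, where 1145 of 4713 genes were called higher in disomes and 1191 lower. With the barcode as a replicate block, 1 member (Xbp1, 0.53, adjusted p = 0.0456) was higher in HFHS disomes, where the main value was 0, and Pdia4's difference of diet effects was -0.12. In chow 1 member was higher in disomes with no filter and 1 with a minimum count of 50, which leaves Atf4 untested; no filter moved the median of all genes to -0.27 in chow and -0.39 in HFHS. With no filter 1 member (Asns) was lower with diet in monosomes. Leaving out single libraries gave 0 to 1 members lower with diet in monosomes and 1 to 2 higher in chow disomes.

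Signs turned only for values that were not called. In monosomes Calr was -0.028 with a minimum count of 50 and -0.00069 with all libraries in 1 fit. With no filter and without C1, added after the data were seen, Hsp90b1 was -0.026 and Calr -0.036. In disomes Hspa5 was 0.0073 and Hsp90b1 0.053 with no filter, and Hsp90b1 0.034 in the joint fit. Without both C1 libraries the difference of diet effects of Hsp90b1 was 0.016. When single libraries were left out, diet differences in monosomes ran from -0.064 to 0.23 (Hsp90b1), -0.047 to 0.13 (Calr), -0.28 to 0.0074 (Pdia3) and -0.032 to 0.34 (Pdia4). In disomes they ran from -0.27 to 0.097 (Hspa5), -0.17 to 0.15 (Hsp90b1) and -0.088 to 0.40 (Pdia4). Differences of diet effects ran from -0.27 to 0.032 (Xbp1), -0.0082 to 0.38 (Hspa5), -0.21 to 0.14 (Hsp90b1) and -0.19 to 0.33 (Pdia4), and the HFHS ratio of Atf4 from -0.093 to 0.37. The cause of these turns was not tested.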

Other observations

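The single parts of the ER stress response element were also counted, and by construction they occur at least as often as the whole. The letters CCAAT were present on either strand in 8 of the 10 upstream windows of these genes and in 33.8% of all windows, and CCACG in 6 of 10 and in 28.3%; both are parts of the whole element, so they overlap with the matches shown above.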
